A study of Rattus norvegicus with 6 samples.

Results

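The rat regions that the array designers matched to mouse UCSC gene models carry identifiers beginning with MRuc. They were represented by 685 of the 24684 probes that are not controls, 1 probe for each of 685 transcripts. Members were chosen by identifier. Their RNA was compared between pancreatic islets of adult male rats (3 arrays) and islets pooled from rats aged 10 days, called P10 (3 arrays). Islets of both groups had been isolated by collagenase digestion, and their total RNA, labelled with Cy3, went onto 1 array per sample. The labels used here do not state the adult age, the strain, the sex of the P10 rats or how many rats made up a pool. The comparison asks how the islet transcriptome differs between the immature postnatal islet and the adult one.

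Long non-coding RNAs (lncRNAs) are transcripts longer than small RNAs that are not translated into a known protein. Many are made at low levels and in few cell types, and some act on chromatin or on neighbouring genes, while the function of most is unknown. Sequence of lncRNAs is often poorly conserved between mouse and rat, so a rat region matched to a mouse gene model is a candidate transcript and not a characterised gene. In the islet, the weeks after birth are the time at which beta cells acquire glucose-stimulated insulin secretion. The identifiers are those of the array, and the position, sequence and function of the transcripts were not analysed here.

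Levels are log2 signal relative to the 75th percentile of the array, so a level of 0 equals that percentile. Signals of different probes depend on their affinity, so an order of probes by signal is not an order of transcripts by abundance. Changes are adult minus P10, and p-values are limma's, adjusted over all 18362 probes tested on the array. Adult arrays 2 and 3 differed by no more than the spread between spots of a probe, as did P10 arrays 1 and 2, and each pair was averaged and counted as 1 sample. This leaves n = 2 samples per stage. At P10 that is a choice carried over from earlier results of these data, since array 3 differed from the others by no more than the spot spread either, and by that measure alone P10 could be 1 sample. Adult array 1 stood apart from the other adult arrays and had been scanned with the P10 arrays on another slide, so the spread between adult samples and a difference between slides cannot be told apart. The p-values measure only the spread between these samples. No probe was saturated, and the number of arrays limits the precision.

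Islet genes marked the tissue on every array, with the hormone genes Ins1, Ins2, Gcg and Sst well above background throughout. All marker changes here are given for the scaling described above only, and their dependence on it was not tested. Of 11 measured hormone and beta cell genes 6 were higher and 2 lower in adults, the lower ones being Ins1 (-0.93) and Gcg (-0.80). The summed log2 level of the 11 was 9.05 to 9.38 on adult and 9.21 to 9.35 on P10 arrays. Markers of other cells moved with stage. None of 11 measured acinar (digestive enzyme-secreting) markers was higher in adults and 9 were lower. Their summed log2 level was 8.94 to 9.44 on adult and 10.5 to 10.6 on P10 arrays. At P10 the acinar sum was thus above that of the islet genes, an order of probe signals and not of RNA amounts. Of 9 tested enterocyte (intestinal lining cell) markers 0 were higher and 9 lower, with summed levels of 2.96 to 3.11 and 8.13 to 8.25, and Apoa4 was not well above background on any adult array. Leukocyte markers gave 7 higher and 1 lower of 9, with Cd79b, Itgam and Cd4 not well above background on any P10 array, and summed levels of 3.397 to 3.480 in adults and 3.08 to 3.19 at P10. All 3 tested proliferation genes were lower. Duct markers gave 1 higher and 2 lower of 3, mesenchyme markers 1 and 2 of 3, and neither of 2 endothelial markers was called. The part of these cells in the MRuc differences was not tested, and in whole islets fewer cells of a type and less RNA per cell cannot be told apart.

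Fewer MRuc transcripts than protein-coding ones were measurable throughout. Well above background on all 6 arrays were 337 of 685 MRuc probes (49.2%), while 208 (30.4%) were above background on none. For comparison, 64.4% of all probes were measured on all 6 arrays, 73.1% of protein-coding probes and 48.7% of the probes named MRAK, another lncRNA class of the array. Per array the number of MRuc probes well above background was 379 to 427 in adults and 397 to 417 at P10, so the stages overlapped. A further 16 probes (2.34%) were measured on all 3 adult arrays and on no P10 array, and 19 (2.77%) the other way round. Over all probes of the array these shares were 2.34% and 1.97%. Of the other MRuc probes, 13 had all 3 adult arrays but only 1 or 2 P10 arrays. Another 27 had all 3 P10 arrays but only 1 or 2 adult arrays. The last 65 probes were measured on some arrays but on a full set of neither stage. Only probes measured on all 3 arrays of at least 1 stage were tested, which kept 412 of the 685.

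Among the 412 tested MRuc probes, 63 were higher and 130 lower in adult islets (limma adjusted p below 0.05). Over all 18362 tested probes 52.3% were called, 21.3% higher and 31% lower, against 46.8% of MRuc probes, 15.3% higher and 31.6% lower. Called lower thus came close to the share over the whole array, and called higher lay below it. At least 2-fold higher were 48 MRuc probes and at least 2-fold lower 109, where the whole array gave 14.6% and 23.7% of probes. Changes of 8-fold or more were called for 5 of the 412 MRuc probes higher and 16 lower, against 2.07% and 4.51% of all probes. This balance depended on the scaling, as given in the next paragraph. The arrays of the stages did not overlap for 318 of the 412, that is 108 with every adult array above every P10 array and 210 with every P10 array above. That is 77.2%, against 77.9% of all tested probes, so non-overlap alone was no mark of these transcripts.

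The excess of falls depended on the scaling, for MRuc probes and for the whole array. With quantile normalization, which gives every array the same distribution, 107 MRuc probes (26.0%) were higher and 118 (28.6%) lower, against 28.4% and 28.7% of all tested probes. The share of lower among called MRuc probes was then 52.4% in place of 67.4%, and over all probes 50.3% in place of 59.3%. At least 2-fold higher were then 77 of the 412 MRuc probes and at least 2-fold lower 79, against 3518 and 3368 of all 18362. For changes of 8-fold or more the order turned, with 10 MRuc probes higher and 3 lower, against 599 and 491 of all. In the authors' normalized values, which list 361 MRuc probes, more were higher than lower, with 86 higher and 81 lower (23.8% and 22.4%), against 21% and 27% of the 4976 lncRNA probes listed. The median change over the tested MRuc probes was -0.39 with the 75th percentile and -0.10 with quantile normalization. Over all tested probes the medians were -0.23 and -0.02. Relative to the median of the array, most of whose probes are protein-coding, the MRuc median thus lay lower under both scalings. Against the other lncRNA classes the order varied. With the 75th percentile the median was -0.39 for MRAK and -0.31 for lncRNA probes outside the named classes. It was -0.77 for ultraconserved elements and -1.03 for predicted RefSeq non-coding transcripts (XR). Over all lncRNA classes, MRuc included, it was -0.51. With quantile normalization the classes gave, in the same order, -0.05, -0.03, -0.24 and -0.57. In the authors' values the median was -0.014 for MRuc and -0.13 over all lncRNA probes listed. Of the 193 called probes 175 were also called with quantile normalization, all in the same direction. These included all 63 of the higher ones and 112 of the 130 lower ones. Far fewer were kept with normexp background correction, which models the background and adds an offset of 50. It called 75 of the 193, 33 higher and 42 lower, all in the same direction. A further 7 of the 193 changed sign there and were not called. Normexp called 18.9% of tested MRuc probes, against 26.4% of all tested probes. Single libraries moved the counts of MRuc probes and of the whole array together. Without P10 replicate 3 only 24 MRuc probes were higher and 62 lower (20.6% called), where 22.5% of all tested probes were called. Without adult replicate 1 the counts were 117 and 186 (72.0% called), where the whole array gave 71.8%. Adult array 1 shared slide 1 with all P10 arrays, and on that slide alone 87 were higher and 231 lower, with a median of -0.62 (77.2% called, against 78.2% of all probes). Each of these 3 fits has a lone sample in one stage, which is assumed to vary like the other stage.

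**Figure D1:**
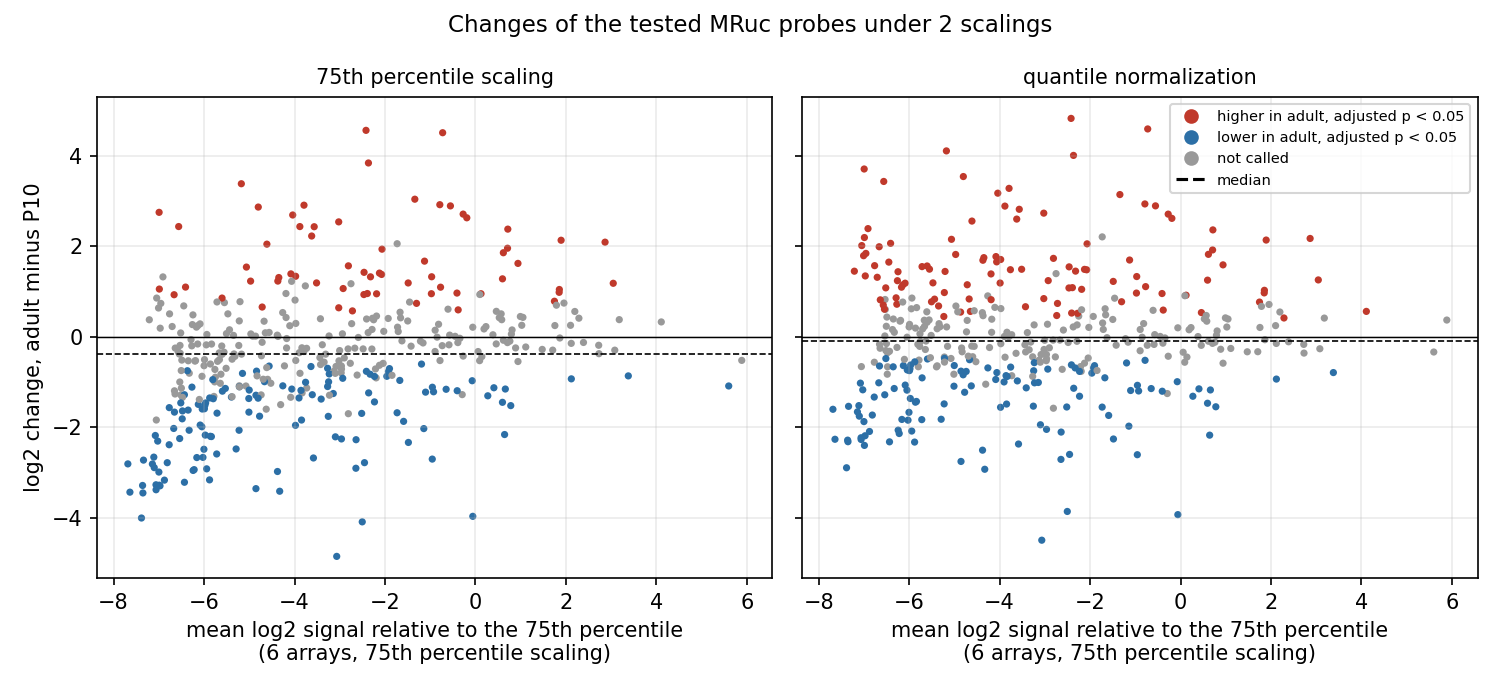
Log2 change (adult minus P10) of the 412 tested MRuc probes against their mean log2 signal relative to the 75th percentile over 6 arrays, with 75th percentile scaling on the left and quantile normalization on the right. Red points were called higher and blue points lower (limma adjusted p below 0.05), grey points were not called, and the dashed line is the median, at -0.39 on the left and -0.10 on the right. The blue points at the dim end on the left are fewer on the right.

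With the 75th percentile most falls were in dim probes. All tested probes were divided into 4 bins of equal size by their mean level over the 6 arrays, and 163 of the 412 MRuc probes were in the dimmest bin and 37 in the brightest. In the dimmest bin 11 MRuc probes were higher and 69 lower (6.75% and 42.3%), against 14.2% and 40.6% of all tested probes of that bin. The median changes there were -0.95 and -0.86. Quantile normalization gave 42 higher and 57 lower of these 163, against 28.6% and 31.4% of all tested probes of that bin, with medians of -0.22 and -0.10. In the next bin 26 MRuc probes were higher and 38 lower with the 75th percentile, 48.1% called against 53.4% of all probes. The bin after it gave 19 and 19, 48.1% called against 51%, with a median of 0.01. In the brightest bin 7 were higher and 4 lower, 29.7% called against 50.1%, with a median of 0.15. There quantile normalization gave 9 and 3 of the 37, against 25.7% and 26.1% of all tested probes of that bin. This bin holds few MRuc probes, and the difference from the other probes was not tested. Probes above background on no array stood lower in adults as well. For the 208 such MRuc probes the median was -1.12, and for the 4168 such probes of the whole array that had a value in each counted sample it was -1.08, against 0.02 for both with quantile normalization. The 75th percentile itself was 10.9 to 11.4 on adult and 9.92 to 9.99 on P10 arrays. A fall of about this size in a dim probe was therefore also seen in probes that were not above background, and its part in the calls was not tested. Among the 337 MRuc probes measured on all 6 arrays, 57 rose and 91 fell (16.9% and 27.0%), against 20.9% and 29.3% of all probes measured on all 6. Quantile normalization gave 83 and 82 of the 337, against 26.9% and 27.5% of all probes measured on all 6.

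The largest rises among MRuc probes measured on all 6 arrays were above 7-fold. MRuc009tdb stood at -0.91, 0.59 and 0.16 on adult arrays 1, 2 and 3 and at -4.63, -4.79 and -4.94 on the P10 arrays. Its rise of 4.56 (SE 0.48, limma adjusted p = 0.00484) corresponds to 23.6-fold. Every adult array was above every P10 array, although adult array 1 lay below the other adult arrays. MRuc007fjm had the same shape, with levels of 0.62, 2.10 and 2.15 in adults and -2.84, -3.08 and -3.31 at P10. The difference was 4.51 (SE 0.57, limma adjusted p = 0.00705), between an adult mean of 1.37 ± 1.06 (SD, n = 2) and a P10 mean of -3.13 ± 0.25 (SD, n = 2). Here too adult array 1 was the lowest adult array, by more than 1 log2 unit, and still far above P10.

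MRuc008sbh was steadier between adult arrays, at -0.22, -0.64 and -0.58, against -4.26, -4.23 and -4.26 at P10. It rose by 3.84 (SE 0.19, limma adjusted p = 0.00146), or 14.3-fold, and the P10 arrays were nearly equal. The adult levels of MRuc009uoz were -0.47, 0.71 and 0.55 and its P10 levels -2.97, -2.88 and -2.99. The rise was 3.04 (SE 0.41, limma adjusted p = 0.00836). In this probe adult array 1 was again the lowest of its stage. For MRuc007smc and MRuc009iiz it was the highest, and both stages were tight. The levels of MRuc007smc were 0.88, 0.50 and 0.52 in adults and -2.11, -2.28 and -2.25 at P10, a rise of 2.92 (SE 0.19). Those of MRuc009iiz were 1.04, 0.83 and 0.75 against -2.10, -1.91 and -1.94, a rise of 2.89 (SE 0.16). Their limma adjusted p-values were 0.00195 and 0.00161.

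The list of the 8 largest rises ends with MRuc008lpv and MRuc007mzr. MRuc008lpv stood at -2.09, -2.53 and -2.59 in adults and -5.06, -5.12 and -5.37 at P10, and rose by 2.90 (SE 0.23, limma adjusted p = 0.00281). MRuc007mzr stood at -4.21, -2.75 and -2.90 against -6.24, -6.15 and -6.57, a rise of 2.86 (SE 0.53, limma adjusted p = 0.0169). Stages did not overlap for either. With normexp background correction, an alternative that models the background and adds an offset of 50, MRuc007mzr was no longer called, at 0.79 (limma adjusted p = 0.253). The other 7 rises were called under all 16 alternatives tried, of which the slide as a block and slide 1 alone are in effect 1 fit. With quantile normalization the 8 rises ranged from 2.89 to 4.82.

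**Figure D2:**
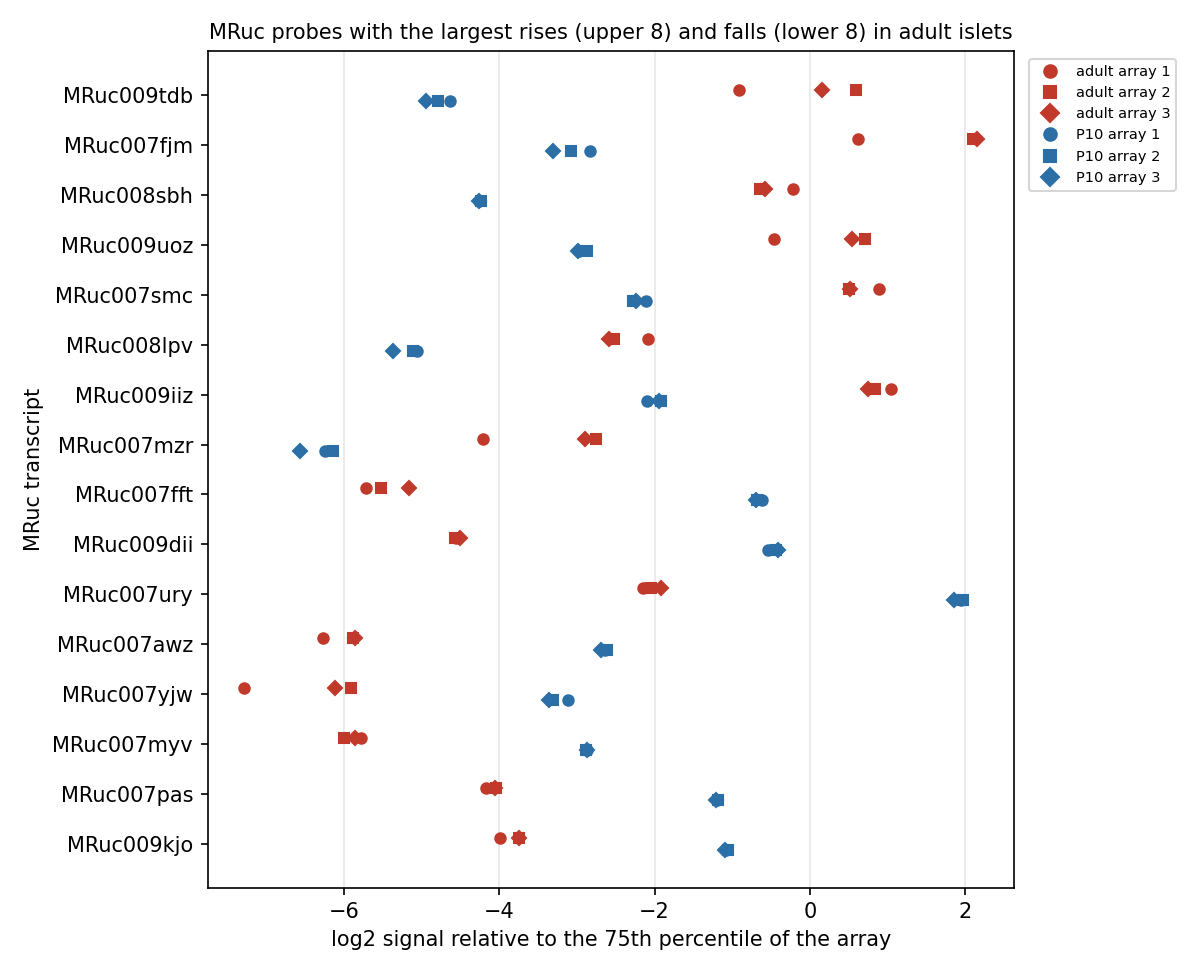
Log2 signal relative to the 75th percentile on each of the 6 arrays for the 8 MRuc transcripts with the largest rises and the 8 with the largest falls in adults among probes well above background on all arrays. Each point is 1 array, red for adult and blue for P10, with the shape giving the array number. In every row the red and blue points are apart, by 2.79 to 4.86 in the means, and adult array 1 (red circle) often lies away from the other adult arrays.

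The steepest falls were as large as the steepest rises. MRuc007fft stood at -5.72, -5.52 and -5.17 in adults and at -0.62, -0.69 and -0.69 at P10. It fell by 4.86 (SE 0.18, limma adjusted p = 0.00132), a 29.0-fold difference. All P10 arrays lay far above all adult arrays, and the P10 arrays were within 0.1 of each other. MRuc009dii had adult levels of -4.56, -4.57 and -4.51 and P10 levels of -0.54, -0.43 and -0.41, and fell by 4.10 (SE 0.13, limma adjusted p = 0.00132). Adult array 1 did not stand apart for this probe. MRuc007ury stood at 1.95, 1.96 and 1.85 at P10, and at -2.16, -2.05 and -1.92 in adults. Its change was -3.97 (SE 0.15, limma adjusted p = 0.00132), or 15.7-fold, from a P10 mean of 1.90 ± 0.07 (SD, n = 2) to an adult mean of -2.07 ± 0.12 (SD, n = 2). This transcript went from well above the 75th percentile of the P10 arrays to well below that of the adult arrays.

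MRuc007awz stood at -6.28, -5.89 and -5.86 in adults against -2.64, -2.61 and -2.69 at P10, a change of -3.42 (SE 0.19, limma adjusted p = 0.00171). MRuc007yjw gave -7.29, -5.92 and -6.12 against -3.12, -3.32 and -3.36, a change of -3.36 (SE 0.47, limma adjusted p = 0.00911). Both were dim in adults, and in the second adult array 1 lay more than 1 log2 unit below the other adult arrays. MRuc007yjw stood at -1.84 with normexp (limma adjusted p = 0.0542) and was not called there. The remaining 3 lay between -2.79 and -2.98 with close replicates. MRuc007myv stood at -5.78, -6.00 and -5.86 in adults and -2.87, -2.88 and -2.87 at P10. MRuc007pas stood at -4.17, -4.05 and -4.06 in adults and -1.20, -1.18 and -1.21 at P10. For MRuc009kjo the adult levels were -3.99, -3.75 and -3.75 and the P10 levels -1.08, -1.06 and -1.10. Neither stage spanned as much as 0.3 in any of these 3, and their limma adjusted p-values were 0.00142, 0.00142 and 0.00165. With quantile normalization the 8 falls ranged from -4.50 to -2.51, all called.

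Some MRuc transcripts were measured in a single stage, and for these only a bound on the fold can be given. The bound sets the mean of the bright stage against the lowest signal of any probe well above background on the dim arrays, or the dim probe's own signal where that is higher. It is approximate, since a given probe may need more signal than this to be measured, and it depends on the scaling and on the background correction. The class itself depends on the rule: under a looser one, which asks that no array of the dim stage has a positive and significant spot, 0 of the 16 adult-only and 0 of the 19 P10-only probes remained. All 19 MRuc probes measured on every P10 array and on no adult array were called lower in adults, as their choice by detection makes likely, with bounds of at least 3.15-fold to at least 8.64-fold, or at least 1.41-fold to at least 4.71-fold with quantile normalization. Of the 16 measured on every adult array and on no P10 array 6 were called higher, and quantile normalization called 16. Both groups had to differ to enter the test in this way, so the counts, and the p-values of the probes named next, are a description and no support.

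Among the P10-only transcripts MRuc008tiv stood at -4.86, -4.81 and -4.72 at P10 and at -7.80, -8.37 and -8.03 in adults, and was at least 8.64-fold lower in adults with the 75th percentile (limma adjusted p = 0.00185) and at least 4.71-fold lower with quantile normalization. MRuc008lvx stood at -5.45, -5.02 and -5.56 at P10 and at -9.36, -9.49 and -9.42 in adults, under the lowest measured signals there, and was at least 6.29-fold lower (limma adjusted p = 0.00135), or at least 3.18-fold with quantile normalization. These are dim transcripts in both stages, but the arrays of the stages are more than 2 log2 units apart. MRuc008img (at least 6.20-fold, limma adjusted p = 0.00399) and MRuc008dmy (at least 5.55-fold, limma adjusted p = 0.00488) followed, with bounds of at least 3.12-fold and at least 2.799-fold by quantile normalization. MRuc008dmy was the least even in adults, with adult array 2 at -7.58 and the others at -9.17 and -8.93. None of these 4 was called with normexp, where they stood between -1.20 and -1.29, with limma adjusted p-values from 0.0787 to 0.118. Those changes, on the log2 scale, are smaller than the bounds by either scaling, so the bounds hold for the main background correction only.

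Among the adult-only transcripts MRuc007pkh had the largest bound. It stood at -3.20, -3.76 and -3.66 in adults and at -6.72, -6.83 and -6.89 at P10, a bound of at least 10.4-fold in favour of adults (limma adjusted p = 0.00209). Its P10 signals lay above the lowest measured signals, so this bound equals the fitted change of 3.38 on the log2 scale and holds for this background correction only. With normexp the change was 0.97, far under it, and quantile normalization gave at least 17.2-fold. The next 3 had smaller bounds. For MRuc008nus the bound was at least 3.52-fold (limma adjusted p = 0.00285), for MRuc009mvj at least 2.89-fold (limma adjusted p = 0.00174) and for MRuc007upd at least 2.13-fold (limma adjusted p = 0.0223). With normexp their direction turned, to -0.050, -0.16 and -0.36, none of them called. The bound of MRuc007upd is likewise its fitted change. For MRuc007upd the P10 levels reached -6.55 on array 2, within 0.5 of the lowest adult level of -6.06 on array 3, and the call was lost without P10 replicate 3 (0.87, limma adjusted p = 0.175).

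**Figure D3:**
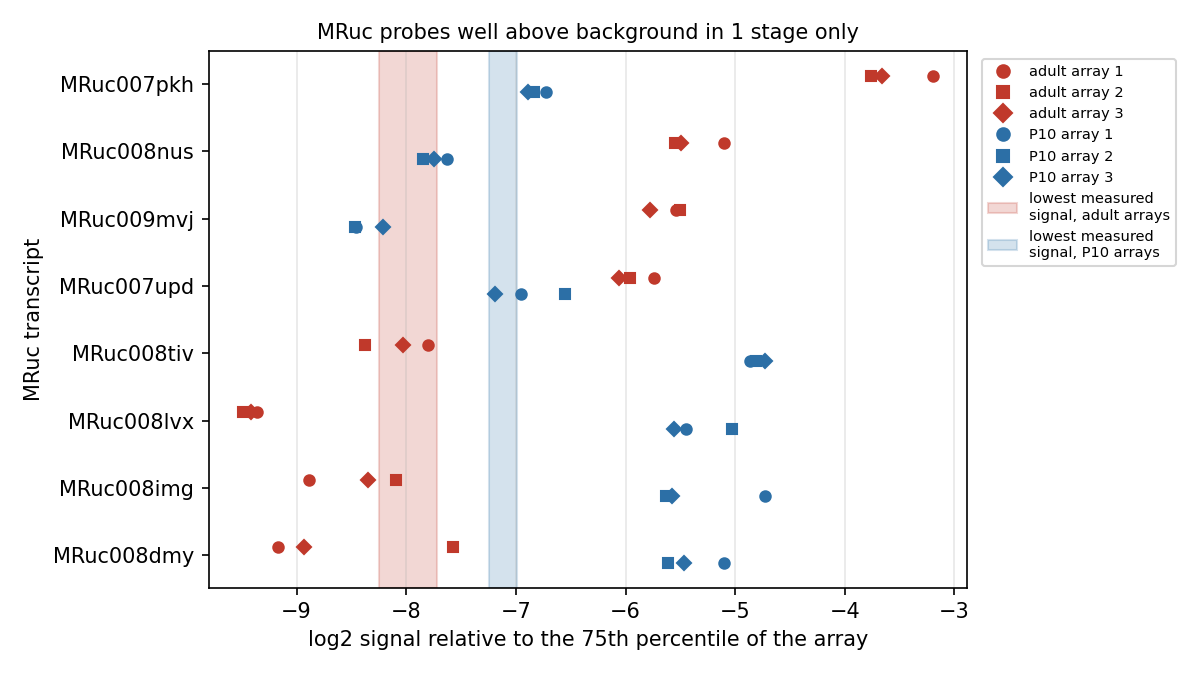
Log2 signal relative to the 75th percentile on each array for 4 MRuc transcripts measured in adults only (upper rows) and 4 measured at P10 only (lower rows). Points are arrays, red for adult and blue for P10, and the shaded bands span the lowest signal of any probe well above background, from -8.24 to -7.72 on adult arrays and from -7.25 to -6.99 on P10 arrays. In each row the red and blue points are apart, and the adult points of MRuc008lvx lie left of the adult band.

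The 4 MRuc probes with the most signal on these arrays, an order of probes and not of transcripts, differed by at most 1.09 between stages. MRuc007gex stood at 5.41, 5.74 and 5.80 in adults and 6.09, 6.15 and 6.12 at P10. The stages did not overlap, yet the change of -0.53 (SE 0.18) did not pass the test (limma adjusted p = 0.0761), and with quantile normalization it stood at 0.37 (limma adjusted p = 0.101). Without adult replicate 1 it was called, at -0.35 (limma adjusted p = 0.0356). It was called with each array counted on its own as well, at -0.47 with the replicate block (limma adjusted p = 0.037). MRuc007hrz stood at 4.94, 5.13 and 5.15 in adults and 6.07, 6.16 and 6.14 at P10, a change of -1.09 (SE 0.15, limma adjusted p = 0.00802) that shrank to -0.34 with quantile normalization (limma adjusted p = 0.0908). Its call was also lost without P10 replicate 3, at -1.08 (limma adjusted p = 0.11).

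MRuc009frc had higher levels in adults, at 4.17, 4.33 and 4.34 against 3.91, 3.98 and 3.91. Its difference of 0.32 (SE 0.14) was not called (limma adjusted p = 0.124) but was with quantile normalization, at 0.56 (limma adjusted p = 0.0228). MRuc007tcw stood at 2.86, 2.85 and 3.12 in adults and 3.90, 3.82 and 3.72 at P10. It was lower in adults by both scalings, at -0.87 (SE 0.14, limma adjusted p = 0.013) and -0.80 (limma adjusted p = 0.00954), though not without P10 replicate 3, where the value was -0.94 (limma adjusted p = 0.145).

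A further 189 of the 337 MRuc probes measured on all 6 arrays were not called. Called were 43.9% of the 337, against 50.2% of all probes measured on all 6 arrays. The 3 MRuc probes with the smallest differences show 2 kinds of case. MRuc008jty was even, at -0.37, -0.61 and -0.41 in adults and -0.41, -0.39 and -0.50 at P10, a difference of 0.01 (SE 0.14), and all 6 arrays lay within 0.3 of each other. MRuc008bfj was not: its adult levels were -5.23, -4.06 and -3.55 and its P10 levels -4.29, -4.36 and -4.72. Its mean difference of 0.00 (SE 0.55) came from adult arrays on either side of the P10 arrays. On slide 1 alone it stood at -0.71 (limma adjusted p = 0.0393) and without adult replicate 1 at 0.72 (limma adjusted p = 0.0457), opposite directions that each rest on a lone adult sample, array 1 in the first and the mean of arrays 2 and 3 in the second. MRuc008fud had adult levels of -5.05, -4.59 and -4.86 and P10 levels of -4.90, -4.87 and -4.91. Its difference of 0.01 (SE 0.17, limma adjusted p = 0.967) became 0.54 with quantile normalization (limma adjusted p = 0.0249).

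Such gaps within the adult stage were common. Over the 412 tested MRuc probes the median gap between the adult samples (array 1 against the mean of 2 and 3) was 0.48, and between the P10 samples 0.13. The adult gap was above 1 log2 unit for 88 probes and the P10 gap for 2. In 128 probes the adult gap was larger than the difference between stages, and in 38 the P10 gap was.

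Set beside the other lncRNA probes, the MRuc probes were closest to the MRAK probes in their median change. Of 2170 tested MRAK probes 394 were higher and 717 lower, 18.2% and 33.0%, with a median change of -0.39, the same as that of the MRuc probes. With quantile normalization the MRAK medians and counts were -0.05, 592 higher and 647 lower. Predicted RefSeq non-coding transcripts (XR) gave 99 higher and 564 lower of 1170, with a median of -1.03, and the share of lower among called probes was 85.1%, or 75.3% with quantile normalization. Protein-coding probes gave 2957 higher and 3606 lower of 12538 and a median of -0.13. The difference between these classes was not tested. The MRuc median lay between those of protein-coding and XR probes under both scalings, since with quantile normalization they were 0.03 and -0.57.

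**Figure D4:**
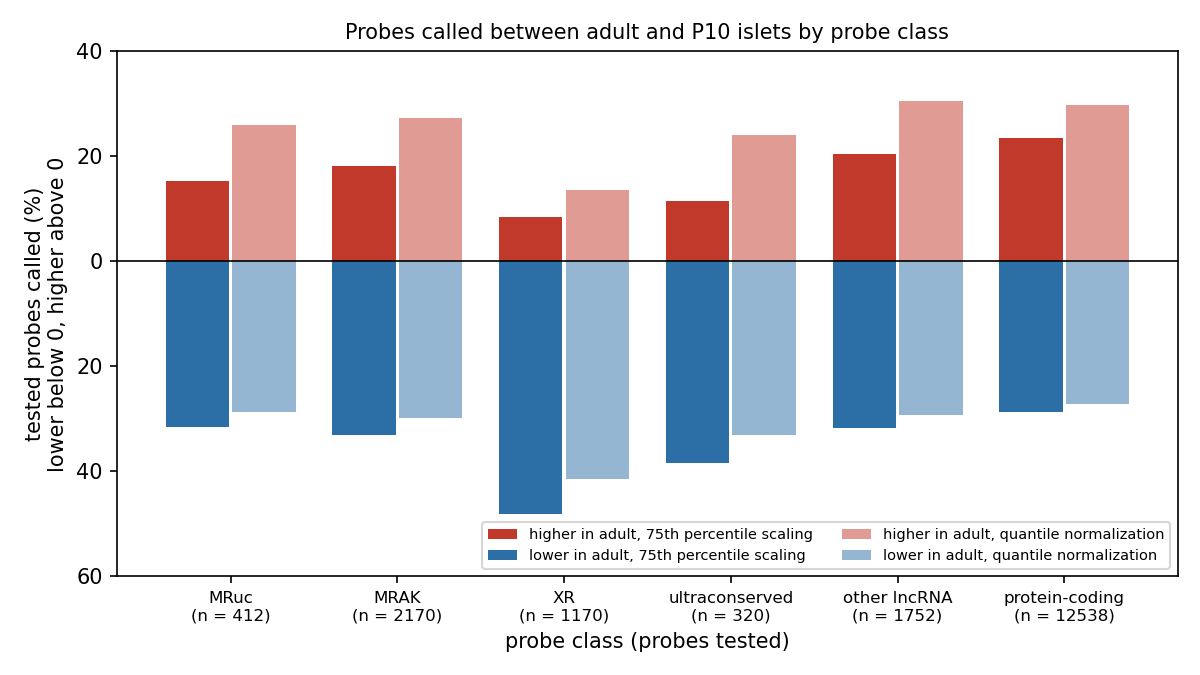
Percent of tested probes called higher (red, above 0) or lower (blue, below 0) in adult than in P10 islets by probe class, with 75th percentile scaling in full colour and quantile normalization in pale colour. The number under each class is the number of probes tested. For MRuc the bars are 15.3% and 31.6% with the 75th percentile and 26.0% and 28.6% with quantile normalization.

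Probes with near identifiers were compared too. UCSC identifiers form an alphabetical series, and 21 pairs of MRuc probes have directly consecutive identifiers, in 5 of which both were tested. In 1 of the 5 both changes had the same sign. The pair MRuc008avq and MRuc008avr, singled out after their values were seen, was called in opposite directions, at -3.28 (limma adjusted p = 0.0224) and 1.54 (limma adjusted p = 0.00526). For the 35 tested pairs whose identifiers were 2 to 10 steps apart, the changes gave a Pearson r of -0.10 and a Spearman rho of -0.11, across probes that share the same arrays. Whether consecutive identifiers lie next to each other in the rat genome was not analysed here.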

How the data were processed

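Each sample is 1 Agilent array of 1 colour, with 3 arrays per stage. The authors deposited scanner files, for which the submitters' processing notes name Agilent Feature Extraction 11.0.1.1. The processed intensity of a spot is, per the file headers, corrected for background and spatial trend and not scaled between arrays. Flags (unit other) for background, outliers and saturation are per the file headers 0 or 1. The authors also deposited normalized log2 values for 4976 lncRNA probes, 361 of them MRuc, by a method not given in the sources used here. Of these entries 96.1% lay within 0.05 of quantile-normalized processed signals, and column medians were 7.39 to 7.58. Scale is log2 and direction is that of the signal, while centring stays unknown. No column was left without a sample.

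Outlier spots were dropped, and each probe took the mean log2 value of its other spots (each MRuc probe has 3 spots, most other probes 1). A probe was well above background on an array if at least 50% of its spots were. The 75th percentile of each array was subtracted. The stage contrast (adult minus P10) was estimated in limma 3.58.1 (R 4.3.3; lmFit, then eBayes) over 18362 of the 18500 probes measured on every array of at least 1 stage, leaving out 138 with no value in a counted sample, with Benjamini-Hochberg adjustment and a threshold of 0.05. The fit was also run on simulated data with independent probes and the same spread in both stages. The gaps within the adult and P10 stages differed here, so that run does not cover this feature of the data. Normexp used the median spot signal.

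Arrays of a stage were compared over 2947 probes with 3 spots. The ratio of the variance between arrays to that expected from spots was 1.02 in the averaged adult pair and 0.75 in the averaged P10 pair. Other adult pairs gave 14.7 and 12.9, and other P10 pairs 0.92 and 0.85. Over 223 genes with 2 bright probes, array differences at one probe and the other had a rho of 0.19 and 0.13 in the averaged pairs, 0.66 in the other adult pairs and 0.29 and 0.30 in the other P10 pairs. The P10 case is thus close.

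Named probes are the 8 largest rises and 8 largest falls among called, non-overlapping probes measured on all 6 arrays, the 4 largest bounds in each direction, the 4 highest mean levels and the 3 smallest changes. Marker genes were matched by RefSeq accession to a GRCr8 gene table. The members, rule, marker lists and tests were chosen with earlier results of these data known. The alternatives were other scalings, background correction, filters, replicates, slides, left-out arrays and the authors' values.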

Additional observations from a re-analysis of the deposited data

How the results depend on the processing

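With quantile normalization the MRuc counts were 107 higher and 118 lower (26.0% and 28.6%), against 28.4% and 28.7% of all tested probes. The MRuc median was then -0.10. Median scaling gave 95 higher and 119 lower (23.1% and 28.9%), against 27.7% and 25.3% of all tested probes. There the MRuc median was -0.090, while the median over all tested probes turned to 0.068. Normexp gave 33 higher and 45 lower (8.01% and 10.9%), against 11.6% and 14.8% of all tested probes. It turned MRuc008nus, MRuc009mvj and MRuc007upd to -0.050, -0.16 and -0.36. Each array as its own sample gave 98 higher and 179 lower (23.8% and 43.6%), against 29.3% and 41.3% of all tested probes. The slide as a block, and slide 1 alone, each gave 231 lower and a median of -0.62. With no filter on dim probes 66 were higher and 297 lower (9.64% and 43.4%), against 15.1% and 35.1% of all tested probes. The MRuc median was then -0.90, and the median over all tested probes -0.56. The authors' values gave 86 higher and 81 lower of 361 listed and a median of -0.014, against -0.13 over all lncRNA probes listed. Leaving out single arrays gave 24 to 117 higher, 62 to 186 lower and medians of -0.49 to -0.22. The adult-only and P10-only counts of 16 and 19 ranged from 16 to 22 and from 19 to 28 then, and came to 0 and 0 if the dim stage may hold no positive and significant spot. The replicate block gave 83 higher and 165 lower (20.2% and 40.1%), against 26% and 37.5% of all tested probes. Same-numbered arrays of the stages gave deviations correlating at -0.21, 0.08 and -0.24, and other pairs gave -0.26 to 0.30. Adult arrays 2 and 3 gave near-equal values with each P10 array. The check can therefore not tell whether the numbers pair the samples. The cause of the shifts between settings was not tested. The 163 MRuc probes in the dimmest of the 4 bins had the lowest mean levels, and how far background limits them was not tested.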
